A study of Mus musculus with 9 samples.

Results

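The RNAs described here are 10 mouse long noncoding RNAs: 7 that carry small nucleolar RNAs (snoRNAs) in their introns (Gas5, Snhg1, Snhg3, Snhg5, Snhg6, Snhg8 and Snhg12) and 3 that act in the nucleus (Malat1, Neat1 and Kcnq1ot1). Members were found by their symbol in the deposited count table, which held a row for 9 of the 10 among its 46078 genes. The row of Snhg1 was not found, so Snhg1 was not analysed here. Of the 9, 8 passed the filter on low counts, and Snhg3 did not. The libraries came from transcript 3′ ends of 6 T cell lymphomas taken from the thymus, in which MYCN drove the tumour, and of 3 control preparations, CD4+ T cells from spleen. All 9 were from the C57BL/6J strain, and the labels name no treatment, age, sex, further allele or batch. The promoter or Cre behind MYCN is not given in the sources used here, nor is it stated that each library came from a separate animal, so p-values measure the spread between these libraries. Libraries carry the numbers in their labels: lymphoma 34, 53, 56, 70, 72 and 86, and CD4 1, 2 and 3.

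snoRNAs guide the methylation and pseudouridylation of ribosomal RNA in the nucleolus. Most mammalian snoRNAs are cut out of introns, and the Gas5 and Snhg genes are hosts whose spliced exons encode no known essential protein. Their spliced RNAs are exported, engaged by ribosomes and broken down by nonsense-mediated decay, so that their level responds to translation. Gas5 was named for its accumulation in growth-arrested cells. Malat1 is an abundant RNA of nuclear speckles, Neat1 is the scaffold of paraspeckles, and Kcnq1ot1 is an imprinted antisense RNA that silences neighbouring genes on the paternal chromosome.

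RefSeq promoters (build GRCm38.p6, 250 bases before to 50 after the start site) were available for 9 start sites of 8 members. Snhg6 and Neat1 had none in the table used. The last 50 bases before and the first 50 bases from the start are shown for 4 hosts and 2 nuclear RNAs, because these 4 hosts, picked for printing after the motifs were found, carry features there that the choice of members did not use. Capitals mark TATAAA or TATATA lying 45 to 16 bases before the start, and any C followed by at least 4 bases that are each C or T, from 10 bases before the start through the first 15 bases of the transcript. Such a pyrimidine run at the 5′ end is the mark of TOP transcripts, a class that includes ribosomal protein mRNAs.
Gas5 (chr1:161035116-161035215, plus strand): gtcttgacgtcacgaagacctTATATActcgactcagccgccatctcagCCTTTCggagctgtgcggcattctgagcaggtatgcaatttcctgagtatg
Snhg5 (chr9:88522848-88522947, minus strand): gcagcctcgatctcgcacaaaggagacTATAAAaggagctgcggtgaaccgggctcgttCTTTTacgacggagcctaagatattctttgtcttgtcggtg
Snhg8 (chr3:123508287-123508386, minus strand): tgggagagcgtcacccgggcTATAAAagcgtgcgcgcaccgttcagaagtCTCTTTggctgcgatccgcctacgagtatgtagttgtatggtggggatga
Snhg12 (chr4:132308628-132308727, plus strand): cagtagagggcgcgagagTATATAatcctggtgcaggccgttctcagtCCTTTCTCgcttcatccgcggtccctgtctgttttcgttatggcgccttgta
Malat1 (chr19:5802623-5802722, minus strand): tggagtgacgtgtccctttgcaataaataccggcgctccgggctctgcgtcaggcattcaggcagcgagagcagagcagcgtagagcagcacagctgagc
Kcnq1ot1 (chr7:143296498-143296597, minus strand): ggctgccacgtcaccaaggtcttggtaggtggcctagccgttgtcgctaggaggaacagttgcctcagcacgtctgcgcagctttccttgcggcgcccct

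The TATA motif, searched in the direction of transcription, was present at 4 of the 9 start sites and at 2.96% of 32851 promoters in the table. Those start sites belong to the 4 hosts shown and not to Snhg1 or Snhg3. A C followed by 4 bases of C or T exactly at the annotated start was present at 2 of 9 start sites (Gas5 and Snhg8) and at 2.51% of all promoters. Within the wider window it was present at 5 of 9, Snhg3 included, and at 30.7% of all. Neither motif was found at the start sites of Malat1, Kcnq1ot1 and Snhg1, nor at the other annotated start of Gas5. The sequence CACGTG, bound by MYC family dimers and identical on both strands, was in 0 of the 9 windows of 300 bases and in 7.15% of all promoters. The TATA search and the wider window were chosen after the sequences were seen, and a match describes letters, not a used site.

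GENCODE M21 (GRCm38) tags all 7 hosts as hosts of small RNAs, and tags Malat1 and Neat1 in the same way but not Kcnq1ot1. The hosts are short genes with up to 12 exons: Gas5 lies at chr1:161034422-161038539, Snhg5 at chr9:88521050-88522929, Snhg6 at chr1:9941959-9944118, Snhg8 at chr3:123507552-123508404, Snhg12 at chr4:132308623-132311024 and Snhg3 at chr4:132348014-132353686. Malat1 (chr19:5795690-5802672) and Neat1 (chr19:5824708-5845478) neighbour each other on the minus strand of chromosome 19. Kcnq1ot1 is annotated as 1 unspliced antisense transcript of 93092 bases at chr7:143203458-143296549, inside Kcnq1 on the other strand. The submitters' processing notes name mm10 and GRCm38, the build of these coordinates.

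Gene counts ranged from 11170704 to 15769679 in lymphoma and from 8099960 to 10808828 in CD4. Reads in no annotated feature were 16.6% to 22.5% of all reads in lymphoma and 30.4% to 33.3% in CD4, without overlap. The T cell genes Cd3d and Cd3e had over 1000 counts in every library, and of 10 T cell markers 0 were higher and 2 lower in lymphoma (5 lower without lymphoma 53), with summed levels of 1410 to 2176 CPM against 2405 to 2579 CPM. Cd4 had 2145 to 2760 counts in CD4 and 83 to 1098 in lymphoma, and Cd8a had up to 329 counts in CD4, 322 in lymphoma 53 and at most 25 in the other lymphomas. B cell markers were a feature of the CD4 libraries: 10 of 10 were lower in lymphoma, with summed levels of 4.84 to 9.46 CPM in lymphoma and 998 to 1166 CPM in CD4, and no defining marker at 0 in CD4. Levels here are CPM, meaning counts scaled to 1000000 with TMM factors. Myeloid markers summed to 52.2 to 191 CPM in lymphoma and 376 to 407 CPM in CD4, with 5 of 10 lower (3 of 10 without CD4 3), and markers of plasmacytoid dendritic cells to 47.5 to 115 CPM and 428 to 485 CPM, with 5 of 6 lower. Stromal and thymic epithelial markers summed to 37.0 to 98.4 CPM in lymphoma and 25.9 to 34.8 CPM in CD4, with 2 of 5 tested higher. Dcn had 0 counts in CD4 and 28 to 102 in lymphoma. Krt5, Krt8 and Foxn1 had 0 counts in CD4 and no more than 10 in any lymphoma. Epcam, also an epithelial marker, had 97 to 827 counts in lymphoma and 11 to 21 in CD4. Col1a2 overlapped, with 69 to 486 counts in lymphoma and 151 to 195 in CD4. Erythroid markers summed to 22.9 to 903 CPM and 99.5 to 360 CPM, with 1 of 8 tested higher. Proliferation genes were higher in lymphoma for 12 of 12, with summed levels of 2630 to 3941 CPM against 305 to 377 CPM. The Y-linked gene Ddx3y was at 149 ± 20.0 CPM over the lymphomas (SD, n = 6), against 0.548 ± 0.310 CPM over the CD4 libraries (SD, n = 3), so sex and tissue of origin coincide with the groups and cannot be told apart from them. The part of these differences in the results below was not tested. Counts of mouse Mycn did not exceed 3 in a lymphoma and reached 6 in CD4 3, and no transgene row was found, so the driver did not check the labels.

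The question put to these data was how hosts and nuclear RNAs differ between lymphoma and CD4. Among the hosts, 3 of 5 tested rose (Gas5, Snhg5 and Snhg12), none fell, and Snhg6 and Snhg8 did not pass the test. Of the 3 nuclear RNAs, Malat1 and Neat1 fell and Kcnq1ot1 rose. Over all 15401 tested genes, the quasi-likelihood test of edgeR, at a Benjamini-Hochberg adjusted p under 0.05, called 46.6%, with 24.7% higher and 21.9% lower in lymphoma. Among the 1207 other tested long noncoding genes, 11.0% were higher and 25.7% lower. The median log2 fold change was 0.56 over the 5 hosts and -1.44 over the 3 nuclear RNAs, against 0.042 over all tested genes and -0.60 over the other long noncoding genes. Since 44.9% of all tested genes had groups that did not overlap in CPM, the 6 of 8 members of that kind are read beside that share. Without CD4 2, Snhg5 was the only host called, and Gas5 and Snhg12 had adjusted p of 0.0615 and 0.129 by edgeR. In bulk RNA, fewer cells of a type and less RNA per cell cannot be told apart.

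**Figure D1:**
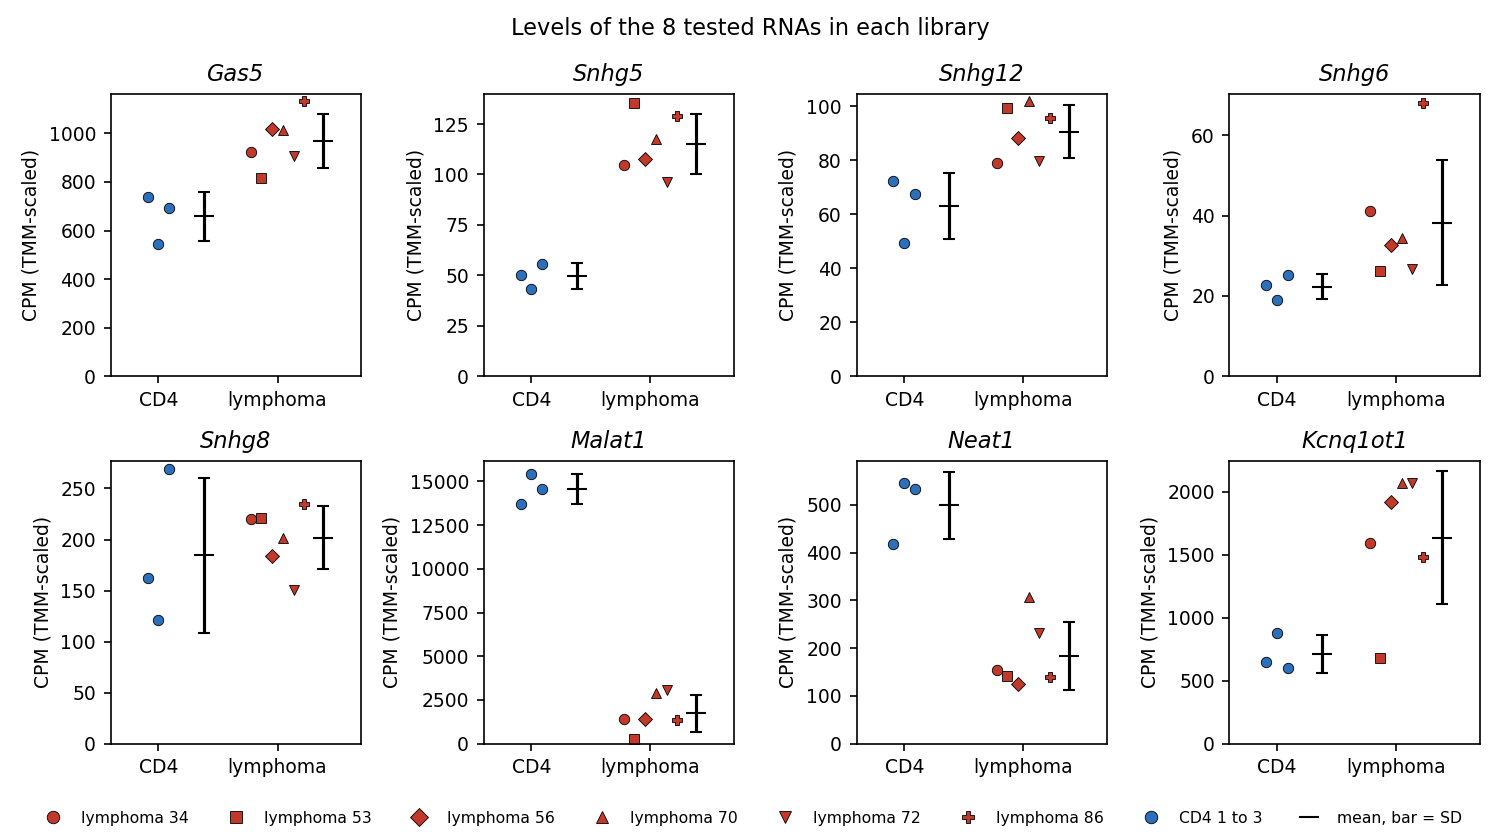
Levels of the 8 tested RNAs in CPM (TMM-scaled, linear axes from 0). Each point is a library, with a separate mark for each lymphoma, and the bar beside each group is its mean and SD (n = 3 CD4, n = 6 lymphoma). Gas5, Snhg5, Snhg12 and Snhg6 lie higher in every lymphoma than in every CD4 library, Malat1 and Neat1 lie lower, and Snhg8 and Kcnq1ot1 overlap.

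Gas5 (ENSMUSG00000053332), which carries box C/D snoRNAs, had 736, 545 and 692 CPM in CD4 1, 2 and 3. In lymphoma its lowest, median and highest levels were 815, 968 and 1135 CPM. All 6 lymphomas lay above all 3 CD4 libraries, and lymphoma 53, the lowest, came nearest to CD4 1, the highest control. The means were 969 ± 111 CPM (SD, n = 6) and 658 ± 99.9 CPM (SD, n = 3), a 1.47-fold rise (log2 fold change 0.56, SE 0.156, edgeR adjusted p 0.0117). These values rest on 4546 to 16537 counts per library.

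Snhg5 (ENSMUSG00000097195), host of the U50 snoRNAs, had 50.2, 43.1 and 55.6 CPM in CD4 1, 2 and 3. Lymphomas ranged from 96.5 CPM in lymphoma 72 to 136 CPM in lymphoma 53, with a median of 112 CPM. No lymphoma came near the CD4 range, and the spread was alike in both groups (coefficient of variation 13.0% in lymphoma and 12.7% in CD4). The rise was 2.32-fold (log2 fold change 1.21, SE 0.173, edgeR adjusted p 0.000151), and the call held under all 19 alternatives, with adjusted p up to 0.00161.

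Snhg12 (ENSMUSG00000086290), which carries mostly box H/ACA snoRNAs, had 72.5, 49.2 and 67.7 CPM in CD4 1, 2 and 3. Lymphomas ranged from 79.0 to 102 CPM with a median of 92.0 CPM. The groups did not overlap, but lymphomas 34 and 72 (79.0 and 79.6 CPM) lay near CD4 1. The rise was 1.44-fold (log2 fold change 0.52, SE 0.175, edgeR adjusted p 0.0281). The call was lost without CD4 2 (adjusted p 0.129), without CD4 3 (0.0516) and with upper quartile scaling (0.0543).

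Snhg6 (ENSMUSG00000098234) had 22.8, 18.96 and 25.2 CPM in CD4 1, 2 and 3. In lymphoma the lowest, median and highest levels were 26.3, 33.6 and 68.0 CPM. The groups did not overlap, yet lymphomas 53 and 72 were within 2 CPM of CD4 3, and lymphoma 86 stood far above the rest. Its fitted log2 fold change, 0.78 (SE 0.303), did not pass the threshold (edgeR adjusted p 0.0534). Without lymphoma 53 or lymphoma 72 it was past the threshold (edgeR adjusted p 0.0228 and 0.0402). Without CD4 1, 2 or 3 the edgeR adjusted p was 0.104, 0.171 and 0.0846, and by limma voom on all libraries it was 0.0953.

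Snhg8 (ENSMUSG00000104960) had 163, 122 and 269 CPM in CD4 1, 2 and 3, and 151 to 234 CPM in lymphoma with a median of 211 CPM. Every lymphoma lay within the range of the CD4 libraries, which itself was wide (coefficient of variation 41.2%, against 15.2% in lymphoma). The log2 fold change was 0.13 (SE 0.235, edgeR adjusted p 0.682). Its sign turned without CD4 2 (-0.090), and without CD4 3 it was 0.52 (adjusted p 0.0839), so the direction rested on single CD4 libraries.

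Snhg3 (ENSMUSG00000085241), host of the U17 snoRNAs, had 0 to 6 counts per library: 0, 0, 2, 1, 2 and 6 in lymphomas 34, 53, 56, 70, 72 and 86, with 1, 1 and 2 for CD4. No library other than lymphoma 86 exceeded 3 counts, which is what 0 counts still allow, so no fold is given. In the unfiltered table its edgeR adjusted p was 0.992. Of the annotated exon bases of Snhg3, 86.3% are shared with exons of Rcc1, Gm17300 or Snora73a, 29.8% on the same strand. The strand setting of the counting is not given, and reads over several genes are set aside as ambiguous in such tables, so this row says little about the level of Snhg3.

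Rows of snoRNA genes inside the tested hosts held few or no counts. Whether these libraries of transcript 3′ ends capture mature snoRNAs was not tested. The table held 10 snoRNA rows inside Gas5, 5 inside Snhg12, 2 inside Snhg5 and 1 inside Snhg8, and every library had 0 counts in each of these rows. All of these snoRNA genes overlap an annotated exon of a host transcript, and what part of their reads was set aside as ambiguous was not tested. Inside Snhg6, Snord87 overlaps no host exon and stood at 4.74 ± 1.17 CPM over the lymphomas (SD, n = 6), against 5.93 ± 2.19 CPM over CD4 (SD, n = 3), with an edgeR adjusted p of 0.538. Inside the Snhg1 locus (chr19:8723475-8726443), 8 snoRNA rows held counts, and all 8 lie over annotated exons of Snhg1, a gene with no row found here. Of these, 6 were tested and none was called higher. Gm25894 fell (log2 fold change -2.32, SE 0.400, edgeR adjusted p 0.000585), with 5.16 ± 1.98 CPM for lymphoma (SD, n = 6) and 25.9 ± 12.5 CPM for CD4 (SD, n = 3). A further count took the 131 rows whose symbols begin with Snord, Snora or Scarna, which leaves out rows such as Gm25894. They made up 0.0169% to 0.0340% of gene counts in lymphoma and 0.0342% to 0.0889% in CD4, without overlap. Of these rows, 38 were tested, with 5 higher, 3 lower and a median log2 fold change of -0.026. Over all tested genes 24.7% were higher and 21.9% lower. These values describe reads in such rows and are not read as levels of mature snoRNAs.

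Malat1 (ENSMUSG00000092341) had 13694, 15401 and 14578 CPM in CD4 1, 2 and 3. In lymphoma its lowest, median and highest levels were 249, 1417 and 3086 CPM. No lymphoma came near the CD4 libraries, and lymphoma 53 stood below the other 5, which had at least 1328 CPM. As a share of gene counts, Malat1 took 1.39% to 1.58% in CD4 and 0.0244% to 0.314% in lymphoma. The fall was 8.42-fold (log2 fold change -3.07, SE 0.557, edgeR adjusted p 0.00141). The spread was 5.87% of the mean in CD4 and 61.8% in lymphoma. Without lymphoma 53 the log2 fold change was -2.85, and over all 19 alternatives it lay between -3.42 and -2.85 with each call held.

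Neat1 (ENSMUSG00000092274) had 419, 546 and 533 CPM in CD4 1, 2 and 3. Lymphomas had 125 CPM at the lowest, 147 CPM at the median and 308 CPM at the highest. All 6 lay below all CD4 libraries, with lymphomas 70 and 72 (308 and 233 CPM) above the other 4. The fall was 2.72-fold (log2 fold change -1.44, SE 0.267, edgeR adjusted p 0.000942). GENCODE M21 lists 4 transcripts of Neat1, and counts per gene do not tell them apart, so which of them fell was not tested. Raw Malat1 counts were 27.4 to 32.7 times those of Neat1 in the CD4 libraries, 9.21 to 13.3 times in 5 lymphomas and 1.77 times in lymphoma 53, so the ratio of these neighbours fell in every lymphoma.

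Kcnq1ot1 (ENSMUSG00000101609) had 652, 879 and 600 CPM in CD4 1, 2 and 3. In lymphoma 53 it stood at 679 CPM, inside the CD4 range, and in the other 5 lymphomas at 1483 to 2072 CPM, above every CD4 library. The lymphoma mean was 1636 ± 528 CPM (SD, n = 6) beside a CD4 mean of 710 ± 149 CPM (SD, n = 3), a 2.30-fold rise (log2 fold change 1.20, SE 0.312, edgeR adjusted p 0.00798). Without lymphoma 53 the log2 fold change was 1.36. Kcnq1, which it runs through on the opposite strand, had 0 counts in all 9 libraries. Without a stated strand setting, reads of other transcripts within the 93092 bases cannot be told apart from those of Kcnq1ot1.

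**Figure D2:**
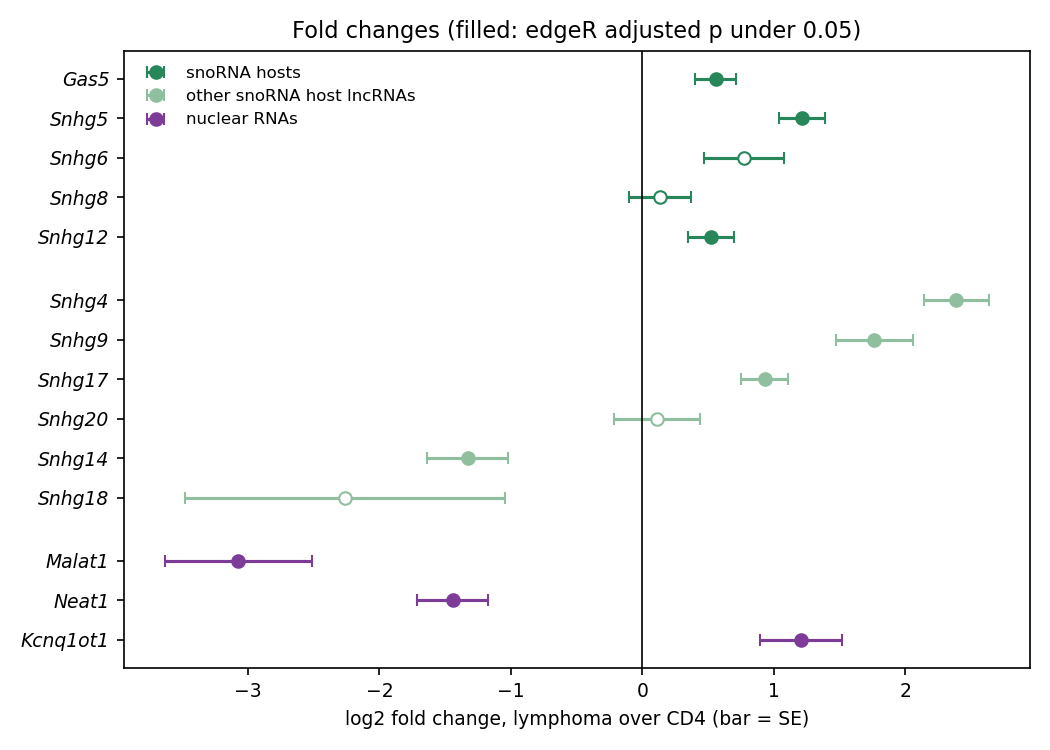
Log2 fold change, lymphoma over CD4, with its SE for the 5 tested hosts, 6 other tested long noncoding snoRNA hosts and the 3 nuclear RNAs. Filled points have an edgeR adjusted p under 0.05. Hosts reach from -2.26 (Snhg18, not past the threshold) to 2.39 (Snhg4), and the nuclear RNAs from -3.07 (Malat1) to 1.20 (Kcnq1ot1).

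Hosts and nuclear RNAs were also set against each other within libraries, where scaling factors cancel. The mean log2 CPM of the 5 hosts was 7.21 ± 0.193 (SD, n = 6) in lymphoma and 6.57 ± 0.279 (SD, n = 3) in CD4, and that of the 3 nuclear RNAs was 9.47 ± 0.748 and 10.74 ± 0.167. Host minus nuclear values ran from -3.21 (lymphoma 72) to -0.99 (lymphoma 53) in lymphoma and from -4.66 to -3.89 in CD4, without overlap. The difference between the groups was 1.91 log2 units, given here as a description. It was 0.83 without Malat1 and 3.11 without Kcnq1ot1, so its size depended on which nuclear RNAs entered. Among lymphomas the host mean had a smaller SD than the nuclear mean, although Snhg6 alone varied more (coefficient of variation 40.8%) than Neat1 (39.3%) or Kcnq1ot1 (32.3%). Lymphomas 70 and 72 were highest for all 3 nuclear RNAs.

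**Figure D3:**
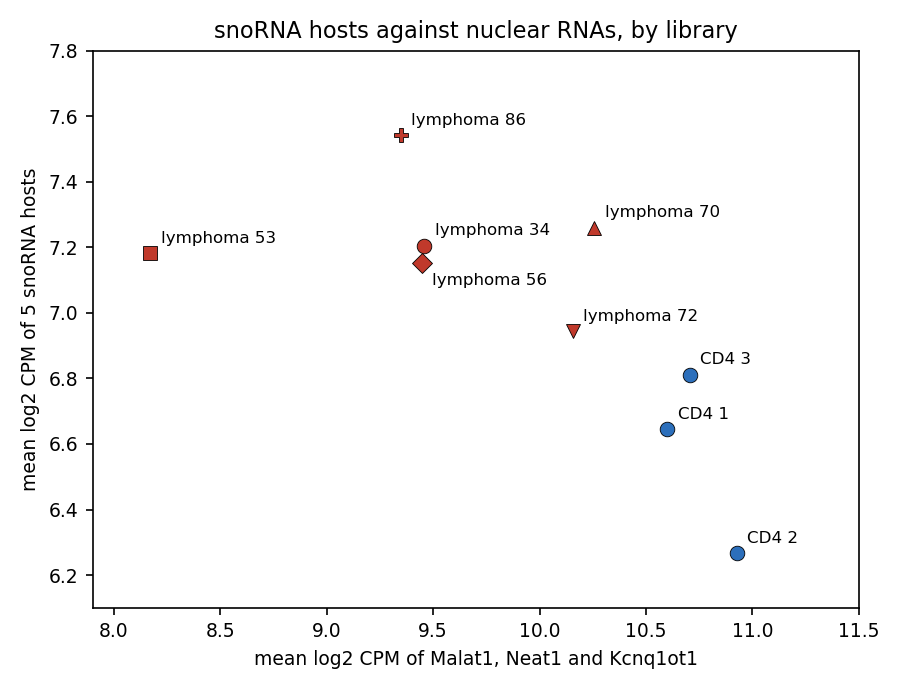
Mean log2 CPM of the 5 tested hosts (vertical axis) against that of Malat1, Neat1 and Kcnq1ot1 (horizontal axis). Each point is 1 of the 9 libraries, red for lymphoma and blue for CD4. CD4 libraries lie at the lower right, and lymphomas spread along the horizontal axis from 8.17 (lymphoma 53) to 10.26 (lymphoma 70) with host means of 6.95 to 7.54.

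Genes beside the members did not all move with them. Zbtb37, which overlaps the Gas5 locus on the opposite strand, fell by 1.77 on the log2 scale (SE 0.279, edgeR adjusted p 0.000311) while Gas5 rose. Syncrip, an RNA-binding protein gene next to Snhg5, rose by 1.15 (SE 0.198). Beside Snhg12, Trnau1ap averaged 31.96 ± 9.54 CPM over the lymphomas (SD, n = 6), against 29.0 ± 9.61 CPM over CD4 (SD, n = 3) (edgeR adjusted p 0.720). Sgk3 near Snhg6 fell by 1.57 (SE 0.210).
At the Snhg1 locus, where the host had no row, the neighbours Slc3a2, a chain of amino acid transporters, and Wdr74 rose by 1.21 (SE 0.195) and 1.15 (SE 0.287). At the Snhg3 locus, Rcc1, the nuclear exchange factor for Ran, rose by 2.87 (SE 0.277, edgeR adjusted p 8.96e-06) with 20.9 ± 7.64 CPM for CD4 (SD, n = 3) and 153 ± 31.6 CPM for lymphoma (SD, n = 6). Reads of Snhg3 within shared exons could have entered or left that row.

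Other long noncoding snoRNA hosts went in both directions. Of 14 listed, 9 had a row and 6 were tested, with 3 higher, 1 lower and 2 not past the threshold. Over all tested genes 24.7% were higher and 21.9% lower, and over other long noncoding genes 11.0% and 25.7%. Snhg4, at 31.98 ± 4.21 CPM for CD4 (SD, n = 3), reached 167 ± 43.0 CPM for lymphoma (SD, n = 6) (log2 fold change 2.39, SE 0.247, edgeR adjusted p 1.52e-05), a larger fold than any tested member of the host group. Snhg9 rose by 1.76 (SE 0.290) and Snhg17 by 0.93 (SE 0.177). Snhg14, the long RNA of the imprinted Prader-Willi locus, fell by 1.33 (SE 0.309). Snhg20 averaged 71.3 ± 28.7 CPM over the lymphomas (SD, n = 6), against 65.9 ± 24.1 CPM over CD4 (SD, n = 3). The 4 calls held under all 19 alternatives.

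Protein-coding genes that host snoRNAs were considered next, since many are ribosomal protein and translation factor genes. All 35 listed were tested and 34 hold an annotated snoRNA on their strand. Of the 35, 18 were higher and 1 lower, with a median log2 fold change of 0.55. Over all tested genes 24.7% were higher and 21.9% lower. The 18 became 16 with RLE, upper quartile or no scaling, and 14 to 20 without any 1 library. Dkc1, the pseudouridine synthase of box H/ACA particles, rose most (2.29, SE 0.157), followed by Ncl (nucleolin, 2.09, SE 0.290). Eef2, the translocase of translation elongation, rose by 1.02 (SE 0.149). Eif4a2, the paralogue of the initiation helicase Eif4a1, was the gene that fell (-1.19, SE 0.166, edgeR adjusted p 0.000129).

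The proteins that bind and assemble snoRNAs moved together. Of 18 listed core and assembly proteins, 18 were higher in lymphoma, with a median log2 fold change of 1.87, where 24.7% of all tested genes were higher. Dkc1 and Nop56 are also among the protein-coding hosts above, so the lists are not separate. With RLE scaling, upper quartile scaling or library size alone 17 of 18 were called, and 14 to 18 without any 1 library, 14 being without CD4 2. The box C/D methyltransferase Fbl had 60.5 ± 9.38 CPM for CD4 (SD, n = 3) and 300.5 ± 97.1 CPM for lymphoma (SD, n = 6), and its partners Nop56 and Nop58 rose by 1.85 (SE 0.198) and 2.14 (SE 0.170). Naf1, an assembly factor of box H/ACA particles, rose most (2.61, SE 0.278, edgeR adjusted p 1.82e-05). The fitted log2 fold changes of Gas5 and Snhg12 were below those of all listed proteins but Tgs1 (0.51, SE 0.194).

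No decay factor passed the test upwards. Of 10 nonsense-mediated decay genes, 0 were higher, 2 were lower and the median log2 fold change was -0.067 (0.020 without lymphoma 70). Over all tested genes 21.9% were lower, so the 2 of 10 are near the background. Smg1, the kinase of the pathway, fell by 0.87 (SE 0.137, edgeR adjusted p 0.000311), and Upf2 fell by 0.52 (SE 0.135). The helicase Upf1 stood at 35.8 CPM in lymphoma and 32.8 CPM in CD4 (edgeR adjusted p 0.730).

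Partners of the nuclear RNAs were compared in the same way, where 24.7% of all tested genes were higher and 21.9% lower. Paraspeckle proteins, which assemble on Neat1, were higher for 11 of 14 and lower for 1, with a median log2 fold change of 0.75. Neat1, counted per gene without telling its transcripts apart, fell. Rbm14 rose most (1.72, SE 0.279), and Nono rose by 0.87 (SE 0.157). Hnrnph3 fell by 0.63 (SE 0.228, edgeR adjusted p 0.0389), a call kept in 2 of the 9 fits that left out 1 library, those without lymphoma 53 and without lymphoma 72. Speckle proteins, whose bodies hold Malat1, were higher for 7 of 11 and lower for 2, with a median of 0.97. The 2 of 11 lower are near the share over all tested genes. Srsf2 rose by 1.89 (SE 0.258), and Srsf5 fell by 1.76 (SE 0.296). The Srsf5 value rested in part on CD4 3, with 1297 CPM against 406 and 581 CPM in CD4 1 and 2, and its log2 fold change was -1.13 without that library. The other fall, of the speckle scaffold Srrm2 (-0.42, SE 0.142, edgeR adjusted p 0.0287), was lost without lymphoma 34, 56 or 70 and without each CD4 library, which left 1 lower, and 3 were lower without lymphoma 53.

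**Figure D4:**
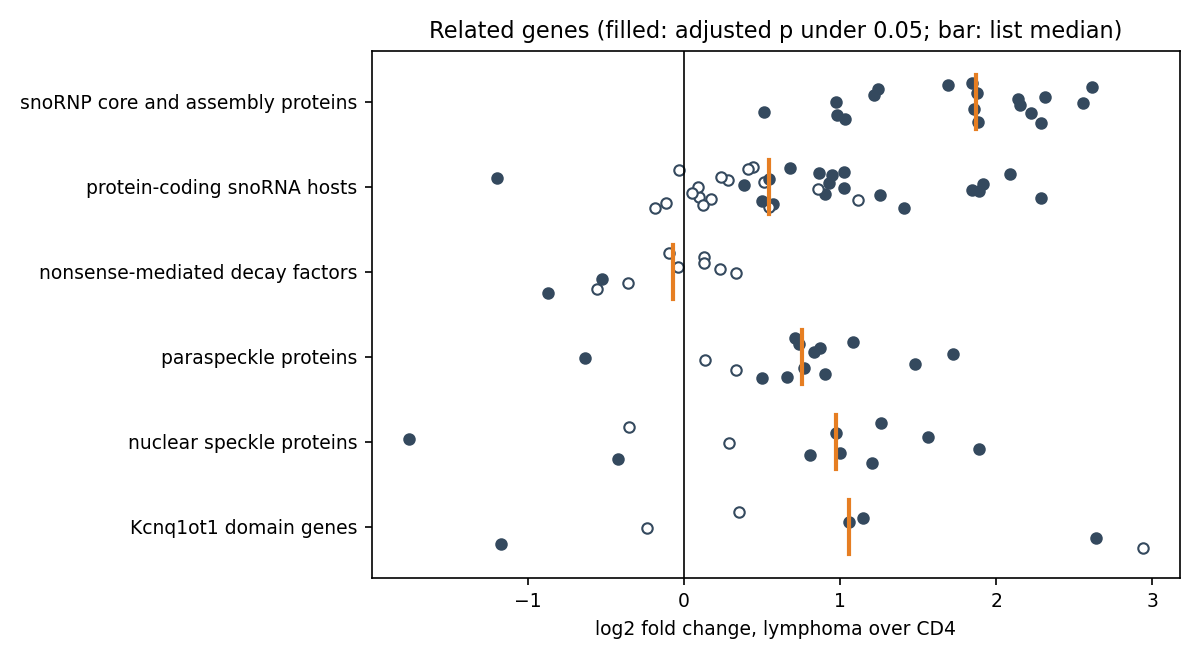
Log2 fold change, lymphoma over CD4, of each tested gene in 6 related lists. Filled points have an edgeR adjusted p under 0.05, and the orange bar is the list median. All 18 snoRNP proteins lie right of 0, and decay factors lie about 0 (median -0.067). Paraspeckle genes lie right of 0 but for Hnrnph3, and speckle and Kcnq1ot1 domain genes spread on both sides. Dkc1 and Nop56 are plotted both as snoRNP proteins and as protein-coding hosts.

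Genes of the imprinted domain around Kcnq1ot1 did not move as a block. Of 12 listed, 7 were tested, with 3 higher and 1 lower, where 24.7% of all tested genes were higher and 21.9% lower. Cdkn1c, a CDK inhibitor that Kcnq1ot1 is known to silence on the paternal copy, averaged 0.531 ± 0.464 CPM for CD4 (SD, n = 3) and 3.43 ± 1.502 CPM for lymphoma (SD, n = 6), a rise (log2 fold change 2.64, SE 0.850, edgeR adjusted p 0.0235). It had 24 to 80 counts in lymphomas and 9, 0 and 8 in CD4, and its call was lost without CD4 3 (adjusted p 0.0515) and with lymphomas 34, 70 and 72 summed (0.0547). Cd81 and Tssc4 rose by 1.06 (SE 0.234) and 1.15 (SE 0.179), and Tspan32, a tetraspanin of blood cells, fell by 1.17 (SE 0.157). Alleles cannot be told apart in these counts.

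Genes most like the members in pattern were sought among 9412 tested genes with a mean log2 CPM of at least 3. With the host mean, Faf1 (r = 0.986), Jmjd4 (0.981), Pno1 (0.975) and Sdhd (0.968) were among the 5 genes with the highest Pearson r over the 9 libraries. With the nuclear mean the 5 were Gm26648 (0.987), Rnpc3 (0.983), Setd2 (0.982), Nlrc5 (0.981) and Atad2b (0.980). All 9 libraries share the division into groups, which feeds such values, and they are given as a description. Pno1, a factor of small ribosomal subunit assembly, rose by 1.43 (SE 0.305), and Rnpc3, a component of the minor spliceosome, fell by 0.78 (SE 0.220), a call lost without CD4 2 (edgeR adjusted p 0.0670).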

How the data were processed

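RNA 3′ ends were sequenced in 6 lymphoma and 3 CD4 libraries. The authors deposited raw read counts per Ensembl gene, with 46078 genes and 5 summary rows of reads in no gene, which were left out of library sizes and tests. HISAT2, SAMtools, HTSeq and FastQC and the builds mm10 and GRCm38 are named in the submitters' processing notes, without versions or strand setting. Reads in genes were 27.8% to 49.1% of all reads. All columns of the table matched a sample.

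Genes were kept by filterByExpr (minimum count 10), which left 15401, scaled by TMM and tested with edgeR 4.0.16 (glmQLFit, robust, and glmQLFTest) in R 4.3.3, with all 9 libraries and no covariate. P-values were adjusted by Benjamini-Hochberg across all tested genes, with 0.05 as threshold. SE is the absolute log2 fold change over the square root of F. Log2 CPM used a prior count of 2. On simulated counts with 200 changed genes among 15401, 12% of 2-fold and 52% of 4-fold changes were recovered. In the data 46.6% of genes were called, far more than were changed there, so these recovery shares need not hold for this fit. Alternatives were RLE, upper quartile, library size alone, TMM without the members, both other filters, DESeq2 1.42.0, limma 3.58.1 (voom), an adjusted p under 0.01, leaving out each library, and lymphomas 34, 70 and 72 summed. The text names all members, the largest called rise and fall of each related list, the nearest and overlapping genes with enough counts, and the 5 genes most like each class mean. A few others were named after their values were seen. A few results that the rule would name are not reported here. Members and lists were chosen with earlier results of these data known. A count of 3 is the limit that 0 allows and covers counting error only. CPM values carry no length correction, so differences and ratios between genes (hosts minus nuclear RNAs, Malat1 over Neat1) are compared across libraries only.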

Additional observations from a re-analysis of the deposited data

Results flagged for a closer look

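Among the 6 lymphomas, 9 values (8 members and the host minus nuclear difference) were examined for a single library lying apart, and 1 met the limit where chance gives 0.45. Snhg6 stood at 68.0 CPM in lymphoma 86 and at 26.3 to 41.3 CPM in the other 5, a gap of 0.641 of the whole range, above Dixon's 95% critical value for 6 samples. Without lymphoma 86 the log2 fold change of Snhg6 was 0.56 (edgeR adjusted p 0.0603).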

How the results depend on the processing

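The calls of Snhg5, Malat1, Neat1 and Kcnq1ot1 held under all 19 alternatives. Over the fits that left out 1 library the log2 fold change ran from 0.45 to 0.66 for Gas5, 0.38 to 0.65 for Snhg12, 0.56 to 0.88 for Snhg6 and -0.090 to 0.52 for Snhg8, and 1 to 4 hosts were called higher. An adjusted p under 0.01 left 1 host, since Gas5 (log2 fold change 0.56, edgeR adjusted p 0.0117) and Snhg12 (log2 fold change 0.52, edgeR adjusted p 0.0281) missed it, and upper quartile scaling left Snhg12 at 0.42 (edgeR adjusted p 0.0543). That scaling moved the median of all tested genes from 0.042 to -0.061. With no filter Snhg6 passed (0.80, edgeR adjusted p 0.0403). The host minus nuclear difference was 0.83 without Malat1 and 3.11 without Kcnq1ot1, the latter chosen after seeing the data, and 1.66 to 2.10 without any 1 library. Signs turned for Snhg8 (-0.090 without CD4 2), Snhg20 (-0.12 without lymphoma 53 and -0.12 without CD4 1, range -0.12 to 0.40) and Trnau1ap (-0.035 without lymphoma 53 and -0.087 without CD4 3, range -0.087 to 0.39), none of them called. The cause of these changes was not tested. The share of calls that were higher was 52.9%, and 47.9% with upper quartile scaling. Genes called over the whole table numbered 4915 to 8137 over the alternatives. No paired analysis was possible because the groups share no replicate numbers.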

Other observations

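Other nuclear or imprinted long noncoding RNAs went both ways. Of 19 listed, 15 were tested, with 3 higher and 5 lower in lymphoma by edgeR at an adjusted p under 0.05. Over all tested genes 24.7% were higher and 21.9% lower. Over other long noncoding genes 11.0% were higher and 25.7% lower. The 3 of 15 higher lie between these shares, and the 5 of 15 lower are above both, with few genes tested. Without CD4 2 or CD4 3, 4 of 15 were lower, and without lymphoma 70, 4 of 14. Those counts are near the share of other long noncoding genes. Xist, which coats the inactive X chromosome, fell most, with 547 ± 47.1 CPM for CD4 (SD, n = 3) and 7.98 ± 2.64 CPM for lymphoma (SD, n = 6), alongside the opposite difference of Ddx3y given above. Airn, like Kcnq1ot1 a long imprinted antisense RNA, had 31.1 ± 5.51 CPM for CD4 (SD, n = 3) and 56.6 ± 11.499 CPM for lymphoma (SD, n = 6), a rise (log2 fold change 0.87, SE 0.217). Mir17hg, the host of the miR-17 cluster, rose by 1.32 (SE 0.319), and Tug1 fell by 0.89 (SE 0.180). Peg13 fell by 2.79 (SE 0.653), and its log2 fold change was -3.73 without lymphoma 53, which had 13.3 CPM where the other lymphomas had 1.29 to 2.91 CPM. Mirg, with the largest fitted rise, had 1 to 45 counts in lymphomas and 1 count in all CD4 libraries together, so no fold is given, and its call was lost without CD4 1 or CD4 2 (edgeR adjusted p 0.0530 and 0.0550).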
